A study of Mus musculus with 18 samples.

Results

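Whole-tissue RNA from the brains of mice that carried a glioma and received AZD8055 was compared with whole-tissue RNA from mice without a tumor. The 6 libraries of the comparison, 3 AZD input and 3 control input, were taken by their group labels out of 18 libraries in the series. All 18 came from Camk2a-Cre-Rpl22HA mice, the controls included. In this genotype the Camk2a promoter drives Cre recombinase mainly in excitatory forebrain neurons, and Cre switches on an HA-tagged copy of the ribosomal protein Rpl22 there. The tumor groups had glioma cells placed in the cortex, and control mice had no tumor. AZD mice carried the tumor and were given AZD8055. Strain, sex, age, dose, duration of treatment and the identity of the glioma cells were not given in the sources used here. Input is the RNA of the whole lysate, and IP is the RNA pulled down with the tagged ribosomes. Whether the 3 replicates of a group are 3 mice was not given, and the p-values therefore measure the spread between libraries, which may be technical. The series holds no control mice that received AZD8055, so the effect of the tumor and that of the compound are joined in this comparison.

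AZD8055 is an ATP-competitive inhibitor of the kinase mTOR that acts on both of its complexes. mTOR complex 1 couples nutrients and growth factors to ribosome production, translation, lipid synthesis and amino acid metabolism, in part through the transcription factors SREBP and ATF4, while mTOR complex 2 activates AKT, which holds FOXO factors out of the nucleus. Many gliomas carry the genes of oligodendrocyte precursor cells, such as the PDGF receptor Pdgfra and the proteoglycan Cspg4. A whole-tissue sample of a tumor-bearing cortex therefore holds RNA of glioma cells, neurons, glia, vessels and immune cells together. In such bulk samples fewer cells of a type and less RNA per cell cannot be told apart.

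Library totals lay between 15300374 and 17839717 counts in the control input and between 14735054 and 19742504 in the AZD input. Control and tumor input belong by their column names to one library set, PD013, and every AZD library belongs to another, PD028, so treatment and library set cannot be told apart. On the first principal component of the 9 input libraries, which held 57.8% of the variance, the controls lay between -76.4 and -66.6. The AZD libraries lay between 17.4 and 46.7 and the tumor libraries between 26.2 and 70.8 on that axis. The second component, with 23% of the variance, put the AZD libraries between -45.5 and -40.1 and the tumor libraries between 33.7 and 45.9. The labelled brain tissue carried its markers in every library, with a summed level of 26 excitatory neuron genes between 2734 and 6731 CPM. Levels are given as CPM, counts scaled to a common library size after TMM normalisation, and a difference is a log2 fold with its standard error, from edgeR's quasi-likelihood test over the 9 input libraries with Benjamini-Hochberg adjustment.

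Of 15511 genes tested, 5703 (36.8%) had an adjusted p under 0.05 between AZD and control, 3214 (20.7%) higher and 2489 (16.0%) lower with AZD. The median log2 fold over all genes tested was 0.01 and the median standard error 0.171. The 3 AZD libraries did not overlap the 3 control libraries in 8844 genes, of which 5660 were called. Higher genes had the wider folds: against a fold of 1.5 with glmTreat, 1252 genes were higher and 258 lower. Single libraries moved these counts. Without control library 2 the calls came to 3737 and without AZD library 1 to 3760, and the lower calls came to 1619, 1390 and 1487 without control library 1, 2 or 3 and to 1391 without AZD library 1. Beside these, tumor against control in input gave 7461 calls (48.1%), 24.5% of the genes higher and 23.6% lower, within library set PD013. AZD against tumor gave 2646 calls (17.1%), 7.89% higher and 9.17% lower with AZD, and 1410 or 1359 calls without AZD library 2 or 3. Values of the tumor libraries are given beside those of AZD for the same genes. Both comparisons use the same 3 control libraries, so their folds are not independent.

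**Figure D1:**
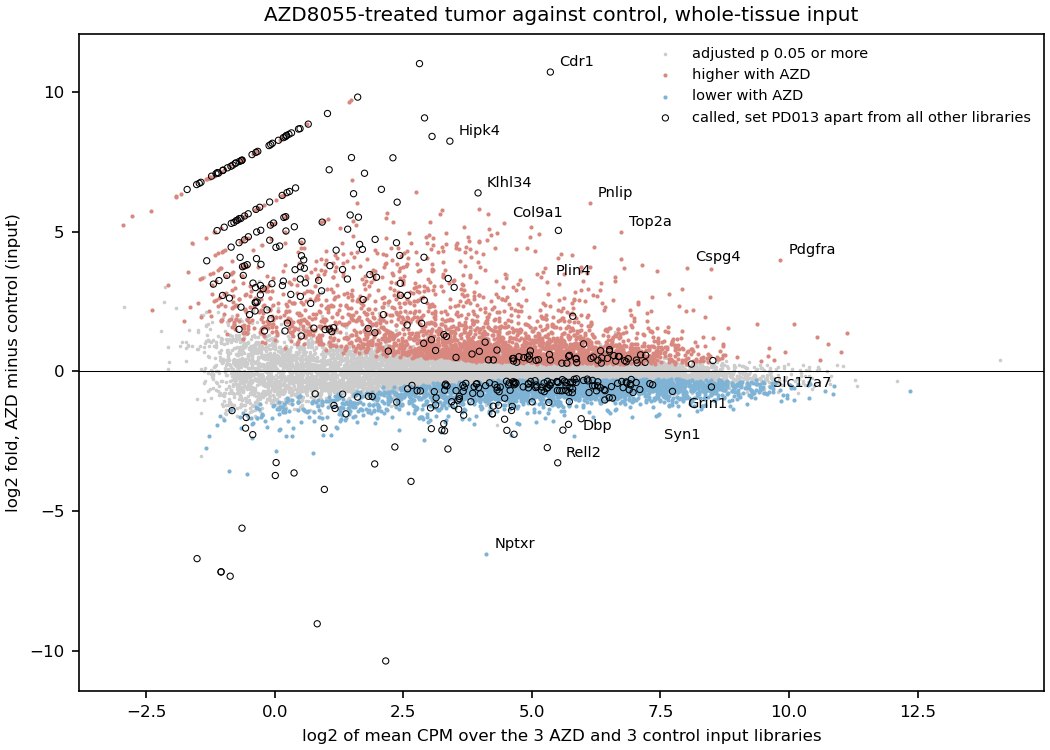
Each point is 1 of 15511 genes, with its mean level over the 3 AZD and 3 control input libraries on the x axis (log2 CPM) and its log2 fold of AZD over control on the y axis; red and blue mark adjusted p under 0.05 and open circles mark called genes in which library set PD013 stood apart from all other libraries. Pnlip and Top2a stand far above 0 and Nptxr at -6.53 below it, and the parallel streaks at low level are genes with almost no control counts.

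Of the 44 gene lists, that of mitosis had the highest median fold in the treated tissue. All 40 genes of the mitosis list, tested in full, were higher with AZD, with a median log2 fold of 4.26 against 0.01 over all genes. A gene near 0 in control could pass the count filter only through the tumor-bearing groups, so the count describes the list and does not test it. The same holds for the other lists below that have members near 0 in control, those of immune genes among them. The summed level of the 40 genes was 110.9 to 130.4 CPM in the control libraries, 802 to 2124 CPM in the AZD libraries and 1545 to 1736 CPM in the tumor libraries. AZD library 1 was the highest of all 9, and AZD libraries 2 and 3 lay below each tumor library. None of the 40 differed between AZD and tumor at an adjusted p under 0.05 in edgeR's test, but without AZD library 1, 20 of them were lower with AZD than in tumor. Counted in single libraries, the list's median lay 4.78, 3.52 and 3.55 log2 units above the control mean in AZD libraries 1, 2 and 3.

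The upstream sequences of 3 of these genes are shown because promoters of cell-cycle genes often carry a pair of short elements, the CCAAT box and the cell-cycle homology region. These 3 genes were picked among called members whose promoter holds the letters of both elements, so they carry the pair by selection. The sequences are the 250 bases before the start site in the RefSeq table of GRCm38.p6, 5′ to 3′ on the gene's strand. TTTGAA and CCAAT, or their reverse complements, are in capitals.
Cdc20, chr4:118437344-118437593, minus strand: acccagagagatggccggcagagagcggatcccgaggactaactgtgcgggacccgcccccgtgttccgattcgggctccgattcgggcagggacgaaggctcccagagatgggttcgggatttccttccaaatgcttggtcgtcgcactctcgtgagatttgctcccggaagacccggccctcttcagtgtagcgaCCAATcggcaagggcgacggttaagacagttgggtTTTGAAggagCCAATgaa
Prc1, chr7:80294226-80294475, plus strand: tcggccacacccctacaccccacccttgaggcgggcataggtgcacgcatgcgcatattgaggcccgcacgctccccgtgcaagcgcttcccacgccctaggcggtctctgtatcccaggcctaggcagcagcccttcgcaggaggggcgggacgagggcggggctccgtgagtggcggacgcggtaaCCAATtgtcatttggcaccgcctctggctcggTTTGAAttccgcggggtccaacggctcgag
Cdk1, chr10:69352913-69353162, minus strand: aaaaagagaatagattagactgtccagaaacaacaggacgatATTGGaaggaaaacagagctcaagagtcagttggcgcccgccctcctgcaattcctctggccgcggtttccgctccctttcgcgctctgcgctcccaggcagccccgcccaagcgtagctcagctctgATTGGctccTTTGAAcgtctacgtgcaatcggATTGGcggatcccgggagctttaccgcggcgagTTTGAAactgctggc
The letters CCAAT, on either strand, stood in a promoter of 75.8% of the mitosis genes held by the table (25 of 33). The share of all genes in it was 37.5%. The letters TTTGAA, on either strand, stood in a promoter of 27.3% of the mitosis genes (9 of 33) and of 18.3% of all genes. A gene counted where any of its promoters held the letters. A match of letters is a description and not a binding site.

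Top2a (chr11:98992947-99024199), the topoisomerase that untangles chromosomes for mitosis, had 9.27, 4.74 and 5.68 CPM in the control libraries and 369.8, 142 and 104 CPM in the AZD libraries. Each AZD library was far above the highest control, and AZD library 1 was the highest of the 3. The log2 fold was 4.97 ± 0.48 (adjusted p = 5.0e-05), and 5.41 in tumor. Mki67 (chr7:135689784-135716450), the gene of the proliferation antigen Ki-67, had 8.12, 4.80 and 6.57 CPM in control and 243, 97.1 and 84.8 CPM with AZD, a log2 fold of 4.45 ± 0.40 (adjusted p = 3.3e-05). AZD libraries 2 and 3 lay below the 3 tumor libraries, which had 215, 233 and 241 CPM, and library 1 lay above them. Cdk1 (chr10:69335146-69352912), the kinase that starts mitosis, rose by 5.63 ± 0.46 (adjusted p = 2.2e-05), and its partner cyclin Ccnb1 (chr13:100778739-100786486) by 5.80 ± 0.53 (adjusted p = 3.6e-05). Ccnb1 had 0.474, 0.702 and 0.447 CPM in control and 54.9, 18.2 and 19.2 CPM with AZD. Cdc20, an activator of the anaphase-promoting complex, rose by 4.40 ± 0.32, the spindle bundling protein Prc1 by 5.17 ± 0.41 and the spindle protein Nusap1 by 4.69 ± 0.42.

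Genes of DNA synthesis rose less. All 35 genes of the DNA replication list were tested and all 35 were higher with AZD, with a median log2 fold of 1.58. Mcm5 (chr8:75109468-75128439), a subunit of the replicative helicase, had 7.71, 6.73 and 7.08 CPM in control and 35.0, 27.3 and 20.4 CPM with AZD, with no overlap and a log2 fold of 1.94 ± 0.19 (adjusted p = 5.1e-05). The tumor libraries had 41.8, 45.4 and 49.1 CPM, all above the AZD libraries. Thymidylate synthase, Tyms, rose by 1.95 ± 0.21, the helicase subunit Mcm7 by 1.85 ± 0.19, and Uhrf1, which carries DNA methylation through replication, by 3.61 ± 0.37. Of the 35, 12 were lower with AZD than in tumor and none was higher. Mcm5 (adjusted p = 0.019) and Tyms (adjusted p = 0.029) were among those 12, which came to 4 without AZD library 2 and to 4 without AZD library 3, and Mcm7 had a log2 difference of 0.03 (adjusted p = 0.92). Leaving out AZD library 2 or 3 took Mcm5 to adjusted p = 0.064 and 0.052, and Tyms to 0.10 and 0.11. Without tumor library 2 Tyms came to adjusted p = 0.073.

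Genes of the oligodendrocyte precursor and glioma lineage were far above control. All 24 listed genes were tested: 21 were higher with AZD, 1 was lower and 2 did not pass, with a median log2 fold of 1.78, beside 3.04 in tumor. Their summed level was 1186 to 1339 CPM in control, 4559 to 6117 CPM with AZD and 9160 to 11250 CPM in tumor, 3 ranges without overlap. Between AZD and tumor, 20 of the 24 were lower with AZD and none was higher, and 13 were lower without AZD library 3. Pdgfra (chr5:75151322-75198206), the PDGF receptor alpha, had 137, 94.4 and 91.0 CPM in control, 3423, 2281 and 2694 CPM in tumor and 2019, 1763 and 1319 CPM with AZD. Every AZD library was far above every control library and lay below every tumor library. The log2 fold over control was 3.98 ± 0.24 (adjusted p = 3.7e-06). The chondroitin sulfate proteoglycan Cspg4 rose by 3.71 ± 0.21 (adjusted p = 3.0e-06).

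The lineage transcription factor Olig2 (chr16:91225550-91228677) had 23.3, 17.6 and 16.6 CPM in control, 211, 252 and 247 CPM in tumor and 112, 115 and 106 CPM with AZD. The 3 groups did not overlap and the AZD libraries were close to each other. Its log2 fold over control was 2.54 ± 0.14 (adjusted p = 3.0e-06), and the difference from tumor was -1.09 (adjusted p = 6.2e-04). Sox6, a factor that keeps precursors immature, stood at 1.51 ± 0.12 over control (adjusted p = 1.6e-05) and -1.14 from tumor (adjusted p = 1.9e-04). The 2 members that did not pass were Gpr17 and Sox8. Gpr17 (chr18:31942999-31949890), a receptor of committed precursors that are leaving the precursor state, had 42.6, 44.4 and 43.3 CPM in control, 215, 366 and 466 CPM in tumor and 55.0, 70.5 and 74.7 CPM with AZD. All AZD libraries lay above control, but near it, and far below tumor. The log2 fold over control was 0.62 ± 0.23 (adjusted p = 0.058) and the difference from tumor -2.39 (adjusted p = 1.9e-04). Sox8, another factor of the lineage, was 0.15 from control (adjusted p = 0.60) and -1.20 from tumor (adjusted p = 0.0048). The lower member was Egfr, the EGF receptor, at -0.58 ± 0.18 (adjusted p = 0.028), named after its value was seen. Egfr did not pass without control library 1, 2 or 3 or AZD library 2 (adjusted p = 0.06, 0.089, 0.077 and 0.099) or with plain library totals (adjusted p = 0.053).

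Genes of the extracellular matrix and of invasion rose in part. Of 36 tested, 20 were higher with AZD and none was lower, or 2 without tumor library 1, with a median log2 fold of 1.20. Vcan (chr13:89655309-89743027), the proteoglycan versican, had 58.3, 46.1 and 52.3 CPM in control, 973, 513 and 740.4 CPM in tumor and 311, 424 and 323 CPM with AZD, again 3 groups without overlap. It stood at 2.76 ± 0.23 over control (adjusted p = 2.2e-05) and -1.07 from tumor (adjusted p = 0.0077). Mmp15, a membrane-bound metalloprotease, stood at 3.22 ± 0.18 over control and -1.24 from tumor (adjusted p = 0.001). The fibrillar collagen Col11a1 rose by 3.61 ± 0.28 over control, with an AZD minus tumor difference of -0.21 (adjusted p = 0.59). The laminin chain Lama4 rose by 1.79 ± 0.16. Timp1, an inhibitor of metalloproteases, did not pass at 2.85 ± 1.14 (adjusted p = 0.072): its AZD libraries had 8.26, 1.21 and 0.473 CPM, the last of them inside the control range. Lama5, a laminin of vessel walls, did not pass at -0.37 ± 0.14 (adjusted p = 0.058).

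**Figure D2:**
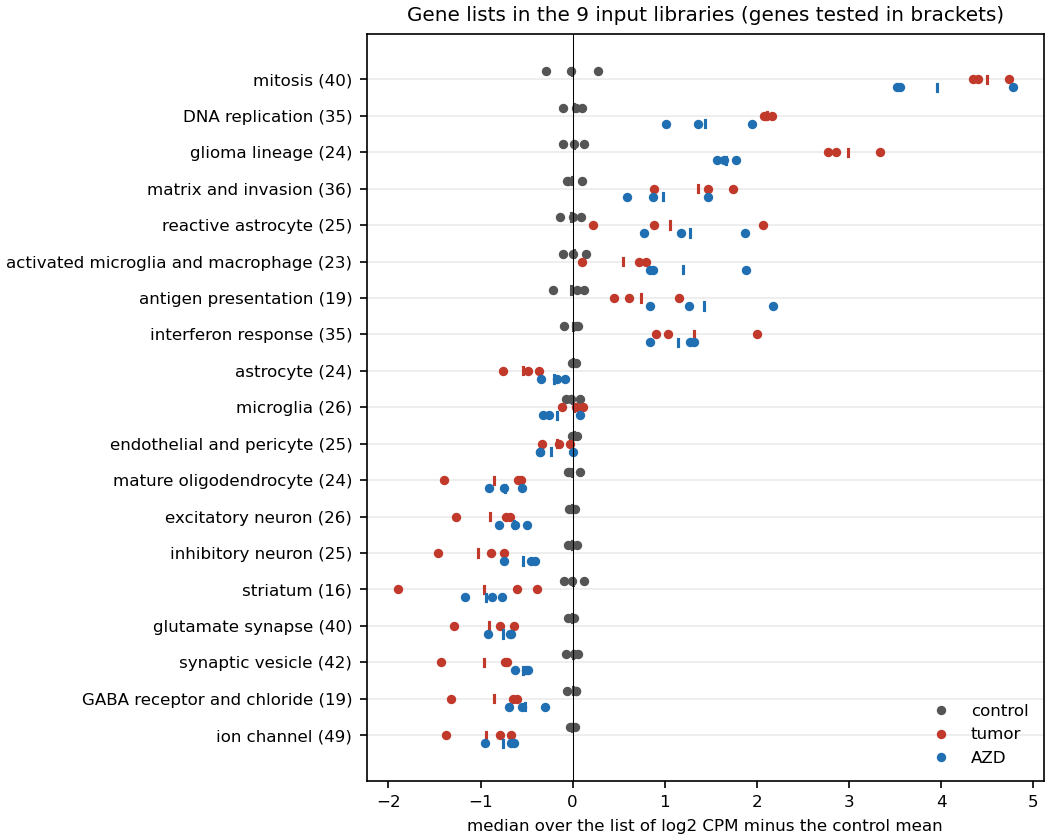
For 19 gene lists, with the number of genes tested in brackets, each point is 1 input library: the median over the list of log2 CPM minus the mean of the 3 control libraries, with short bars at the group means. The mitosis points of AZD lie at 3.52 to 4.78, the glioma lineage points of AZD at 1.57 to 1.77 lie below those of tumor at 2.77 to 3.34, and the excitatory neuron points of AZD at -0.80 to -0.50 lie below 0.

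Neuronal genes were lower in the treated tissue, by less than the tumor genes were higher. Of 26 excitatory neuron markers tested, 15 were lower with AZD and 1 was higher, with a median log2 fold of -0.62. The higher one was the cortical factor Tshz2 (0.84 ± 0.25, adjusted p = 0.025), named after its value was seen, which did not pass without control library 1, control library 3 or AZD library 1 (adjusted p = 0.066, 0.093 and 0.10). Their summed level was 6692 to 6731 CPM in control, 3646 to 4621 CPM with AZD and 2734 to 4325 CPM in tumor. Neither tumor-bearing group overlapped control, and they overlapped each other. Leaving out a library cut the 15 lower calls to 8, 6, 5 and 8 for control library 2, control library 3, AZD library 1 and AZD library 2, in that order. Slc17a7 (chr7:45163921-45176139), the vesicular glutamate transporter of cortical neurons, had 1055, 874 and 849.9 CPM in control and 536, 553 and 549.7 CPM with AZD. The AZD libraries were nearly equal and lay below every control. The log2 fold was -0.76 ± 0.16 (adjusted p = 0.0046), beside -0.69 in tumor. Nrgn, a calmodulin-binding protein of dendrites, stood at -1.23 ± 0.21 (adjusted p = 0.0017). The cortical transcription factor Neurod2 stood at -0.81 ± 0.15 (adjusted p = 0.0022), and Emx1, a factor of the dorsal telencephalon, at -1.31 ± 0.29 (adjusted p = 0.0061). Camk2a, whose promoter drives Cre here, had 978, 1332 and 1011 CPM in control and 461, 829.8 and 708 CPM with AZD and did not pass (-0.73 ± 0.35, adjusted p = 0.13), although the groups did not overlap. The peptide Cck did not pass at -0.55 ± 0.20 (adjusted p = 0.056).

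Many synapse and channel genes were lower. Of 40 glutamate synapse genes tested, 29 were lower with AZD and 2, Gria4 and Grik4, higher (median -0.75), and of 42 synaptic vesicle genes 22 were lower and none higher (median -0.54). Of 19 GABA receptor and chloride genes, 9 were lower and 1, the chloride importer Slc12a2, higher (median -0.52), and of 49 ion channel genes 37 were lower and none higher (median -0.79). The glutamate synapse count came to 19, 17, 17 and 16 without control libraries 1, 2, 3 or AZD library 1, and the ion channel count to 23, 23, 23 and 22 without the same libraries. The vesicle count came to 10, 8, 14, 9 and 13 without control libraries 1, 2, 3, AZD library 1 or AZD library 2, and to 35 without tumor library 1. The GABA count came to 5 without control library 1, control library 2 or AZD library 1, and to 14 without tumor library 1. Tumor library 1 was the most distant of the tumor libraries, and it entered these counts through the shared estimate of the spread. With the 6 AZD and control libraries alone, 35 vesicle genes and 14 GABA genes were lower.

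Grin1 (chr2:25291177-25319187), the obligate subunit of NMDA receptors, had 372, 353 and 309.9 CPM in control, 140, 202 and 210.1 CPM in tumor and 98.7, 122 and 135 CPM with AZD. Every AZD library lay below every tumor library and every control library. Its log2 fold over control was -1.54 ± 0.17 (adjusted p = 1.2e-04). Syn1 (chrX:20860511-20920918), which tethers synaptic vesicles, had 263, 271 and 232 CPM in control and 66.1, 93.2 and 91.8 CPM with AZD, with no overlap (-1.61 ± 0.24, adjusted p = 7.3e-04). Shank3, a scaffold of the postsynaptic density, stood at -1.28 ± 0.19 (adjusted p = 7.9e-04), and the scaffold Dlgap3 at -1.19 ± 0.19 (adjusted p = 0.0012). The active zone proteins Bsn and Pclo stood at -1.34 ± 0.29 (adjusted p = 0.0053) and -1.15 ± 0.24 (adjusted p = 0.0046). The vesicle protein Sv2a did not pass at -0.47 ± 0.17 (adjusted p = 0.054), nor did the release regulator Rims2 at -0.45 ± 0.17 (adjusted p = 0.056).

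Against the direction of most synapse genes, the AMPA receptor subunit Gria4 (chr9:4417893-4796234) was higher. It had 187, 184 and 218 CPM in control, 541, 431 and 473 CPM in tumor and 315, 351 and 321 CPM with AZD, 3 groups without overlap. Its log2 fold was 0.75 ± 0.12 (adjusted p = 0.0011) and its difference from tumor -0.55 (adjusted p = 0.011). The kainate receptor subunit Grik4 passed only narrowly (0.35 ± 0.12, adjusted p = 0.049), and DESeq2 and limma voom did not call it (adjusted p = 0.052 and 0.061). Leaving out single libraries took Grik4 to an adjusted p of up to 0.17, reached without AZD library 1. Among inhibitory receptors, Gabra5 stood at -0.94 ± 0.14 and the metabotropic receptor subunit Gabbr2 at -0.97 ± 0.16, with adjusted p = 7.8e-04 and 0.0014. Among channels, the pacemaker channel Hcn2 had 139, 137 and 131 CPM in control and 56.4, 61.4 and 67.1 CPM with AZD (-1.14 ± 0.16, adjusted p = 4.6e-04). Cacna1a, the pore of P/Q-type calcium channels, stood at -1.04 ± 0.17. Kcnmb4, the neuronal partner of a large-conductance potassium channel, stood at -0.91 ± 0.13 over control and -0.27 in tumor, and AZD differed from tumor (-0.65, adjusted p = 0.0088).

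Markers of inhibitory neurons and of the striatum were lower as well. Of 25 inhibitory markers tested, 12 were lower with AZD and none higher (median -0.54), and the lower count came to 6, 7 and 6 without control library 2, AZD library 1 or AZD library 2. Gad1 (chr2:70561303-70602014), the main enzyme of GABA synthesis, had 425, 489 and 464 CPM in control and 336, 273 and 341 CPM with AZD (-0.54 ± 0.14, adjusted p = 0.015). Without control library 2 or AZD library 2 it did not pass (adjusted p = 0.063 and 0.065), nor with all 18 libraries in the fit (adjusted p = 0.064). Nos1, the neuronal nitric oxide synthase, stood at -1.01 ± 0.16 (adjusted p = 9.3e-04), the interneuron factor Dlx1 at -1.31 ± 0.23 (adjusted p = 0.0018) and the matrix protein Reln at -1.02 ± 0.22 (adjusted p = 0.0052). Sst, the peptide of one interneuron class, did not pass at -0.49 ± 0.27 (adjusted p = 0.18), nor did Gad2 at -0.34 ± 0.19 (adjusted p = 0.18). Of 16 striatal markers, 10 were lower and none higher (median -0.90), with 5, 5, 4 and 4 lower without control library 2, control library 3, AZD library 1 or AZD library 2. Their summed level was 2167 to 2780 CPM in control and 1165 to 1357 CPM with AZD. Ppp1r1b (DARPP-32), a phosphatase inhibitor of striatal neurons, stood at -1.18 ± 0.18, and the phosphodiesterase Pde10a at -1.23 ± 0.30, with adjusted p = 8.4e-04 and 0.01. The part of striatal tissue in the neuronal differences was not tested.

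Glial genes were called in both directions. Over all genes tested, 20.7% were called higher with AZD and 16.0% lower. Of 24 astrocyte markers tested, 8 were lower with AZD and 4, Gfap, S100b, Aqp4 and Gjb6, higher (median -0.15), and the lower count came to 5, 5, 5, 4 and 5 without control libraries 1, 2, 3, AZD library 1 or AZD library 2, and the higher count to 2 without control library 1. The intermediate filament Gfap (chr11:102887336-102897200) had 105, 95.9 and 79.6 CPM in control and 680, 314 and 255 CPM with AZD. The lowest AZD library was above the highest control, and AZD library 1 was the highest. Gfap rose by 2.16 ± 0.38 (adjusted p = 0.0019), beside 2.09 in tumor. S100b, a calcium-binding protein of astrocytes and precursors, rose by 0.91 ± 0.18 (adjusted p = 0.0031). The gap junction protein Gjb6 stood at 0.47 ± 0.12 (adjusted p = 0.014, and 0.051 without control library 1). The bicarbonate transporter Slc4a4 stood at -0.95 ± 0.21 (adjusted p = 0.0059), the neurotensin receptor Ntsr2 at -0.81 ± 0.17 (adjusted p = 0.0042) and the Hedgehog factor Gli3 at -1.34 ± 0.23 (adjusted p = 0.0016). The water channel Aqp4 passed narrowly at 0.42 ± 0.14 (adjusted p = 0.041) and failed without any one of the AZD or control libraries or tumor library 2, with adjusted p between 0.056 and 0.12. The enzyme Aldh1l1 did not pass at -0.35 ± 0.15 (adjusted p = 0.082).

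Of 25 genes of astrocyte reactivity, 12 were higher with AZD and 1 lower, and the higher count came to 6 and 7 without control library 2 or AZD library 1. Vim (chr2:13574311-13582826), a filament that glioma cells also express, had 46.8, 33.7 and 40.3 CPM in control and 341, 163 and 175 CPM with AZD (2.49 ± 0.34, adjusted p = 4.0e-04). No AZD library overlapped control. The lower gene was the adhesion protein Amigo2 (-0.64 ± 0.18, adjusted p = 0.019), which did not pass without control library 1 or 2 or AZD library 1 or 2 (adjusted p between 0.05 and 0.094). The surface protein Cd109 rose by 1.96 ± 0.35, the membrane protein Emp1 by 2.87 ± 0.59 and the copper carrier ceruloplasmin, Cp, by 1.17 ± 0.24. Among mature oligodendrocyte markers 16 of 24 were lower with AZD and 1 was higher (median -0.74), and the lower count came to 8, 5, 6, 4 and 5 without control libraries 1, 2, 3, AZD library 1 or AZD library 2. The myelination factor Myrf stood at -0.77 ± 0.16 (adjusted p = 0.0041), the myelin-associated membrane protein Opalin at -1.75 ± 0.39 (adjusted p = 0.006) and the lipid hydroxylase Fa2h at -1.18 ± 0.28 (adjusted p = 0.0091). Mbp, the myelin basic protein, stood at -1.04 ± 0.32 (adjusted p = 0.026) and failed without any one control library or AZD library 1 or 2 (adjusted p between 0.061 and 0.088). The higher member was Ugt8a, the enzyme of galactosylceramide synthesis, at 0.60 ± 0.13 (adjusted p = 0.0048), beside 1.28 in tumor.

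Microglial identity genes were called in both directions, beside 20.7% of all genes tested called higher with AZD and 16.0% lower. Of 26 microglia markers, 8 were lower with AZD and 4, C1qa, C1qb, Ctss and Irf8, higher (median -0.16). Without control library 1, control library 2, AZD library 2 or AZD library 3 the lower count was 4, 4, 5 and 4, and with plain library totals it was 5. The fractalkine receptor Cx3cr1 (chr9:120048683-120068296) had 53.9, 58.0 and 49.1 CPM in control and 21.8, 26.6 and 29.5 CPM with AZD, with no overlap (-1.05 ± 0.22, adjusted p = 0.0043). Siglech, a lectin of resting microglia, stood at -1.11 ± 0.25 (adjusted p = 0.0059) and the lysosomal membrane protein Laptm5 at -0.95 ± 0.16 (adjusted p = 0.0016). The complement genes C1qa and C1qb went the other way. C1qa (chr4:136895916-136898844) had 27.4, 25.2 and 26.2 CPM in control, 34.3, 31.4 and 23.3 CPM in tumor and 45.4, 43.5 and 36.9 CPM with AZD, all AZD libraries above every control and every tumor library. It rose by 0.67 ± 0.15 over control (adjusted p = 0.0059), and C1qb rose by 0.73 ± 0.16 (adjusted p = 0.0051). P2ry12, the ADP receptor of surveying microglia, did not pass at -0.50 ± 0.22 (adjusted p = 0.094), nor did the pan-leukocyte phosphatase Ptprc at 0.40 ± 0.24 (adjusted p = 0.20).

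Of 23 tested genes of activated microglia and macrophages, among 26 listed, 10 were higher with AZD and 1 lower (median 1.22). Members near 0 in control, such as Itgax with 23 control counts, passed the filter through the tumor-bearing groups, so these values describe the list only. The lower one was the lipase Lpl (-0.80 ± 0.18, adjusted p = 0.0072), named after its value was seen. Cd9 (chr6:125460266-125494760), a tetraspanin that glioma cells can also express, had 18.7, 17.0 and 11.1 CPM in control and 255, 235 and 126 CPM with AZD, and rose by 3.72 ± 0.39 (adjusted p = 8.6e-05). Itgax, the integrin CD11c, rose by 3.09 ± 0.46 (adjusted p = 7.2e-04), the tetraspanin Cd63 by 1.83 ± 0.30 (adjusted p = 0.0012) and the glycoprotein Gpnmb by 1.81 ± 0.36 (adjusted p = 0.0034). The galectin Lgals3 did not pass at 2.25 ± 0.92 (adjusted p = 0.078).

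Most antigen presentation genes were higher. Of 22 listed, 19 were tested, 16 were higher with AZD and none was lower, with a median log2 fold of 1.59. Members near 0 in control, such as Ciita with 12 control counts, passed the filter through the tumor-bearing groups, so these values describe the list only. The median in tumor was 0.80. With only genes of at least 5 CPM on average tested, 10 were higher, and low members such as Ciita and Psmb9 were not tested there. Their summed level was 151.6 to 180.9 CPM in control, 260 to 471 CPM with AZD and 244 to 390 CPM in tumor. H2-K1 (chr17:33996012-34000619), a class I heavy chain, had 19.0, 14.8 and 18.1 CPM in control and 67.3, 43.5 and 30.8 CPM with AZD. No AZD library overlapped control, and library 1 was highest. H2-K1 rose by 1.45 ± 0.30 (adjusted p = 0.0041), the class I gene H2-D1 by 1.59 ± 0.34 (adjusted p = 0.0051) and the class II chain H2-Ab1 by 2.92 ± 0.60 (adjusted p = 0.0042). Class I genes are close copies of each other, and counting could split their reads. Ciita, the master regulator of class II genes, rose by 3.41 ± 0.73 (adjusted p = 0.0049) from 0.541, 0.117 and 0.128 CPM in control to 3.52, 2.43 and 2.37 CPM. Tapbp, which loads peptides on class I molecules, rose by 0.65 ± 0.12 (adjusted p = 0.0027). The immunoproteasome subunit Psmb9 did not pass at 1.33 ± 0.49 (adjusted p = 0.055), with AZD library 3 at 0.710 CPM inside the control range.

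Genes of the interferon response were higher too. Of 37 listed, 35 were tested, 21 were higher and none lower, with a median log2 fold of 1.18, and 23 were higher in tumor. Without control library 1, control library 2 or AZD library 2, 13, 11 and 13 were higher. Upstream sequences of 3 of them are shown for the interferon-stimulated response element, the site of interferon-activated factors, with the same bounds and source as those of Cdc20. These 3 genes were picked among the higher members whose promoter holds GAAANNGAA on either strand, so they carry it by selection. Capitals mark GAAANNGAA or its reverse complement, and matches that overlap run together.
Bst2, chr8:71537473-71537722, minus strand: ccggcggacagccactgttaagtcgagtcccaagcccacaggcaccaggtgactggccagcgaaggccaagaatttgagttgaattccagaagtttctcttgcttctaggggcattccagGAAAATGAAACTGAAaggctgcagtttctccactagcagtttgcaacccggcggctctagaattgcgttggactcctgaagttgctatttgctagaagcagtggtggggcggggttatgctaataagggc
Irgm1, chr11:48871421-48871670, minus strand: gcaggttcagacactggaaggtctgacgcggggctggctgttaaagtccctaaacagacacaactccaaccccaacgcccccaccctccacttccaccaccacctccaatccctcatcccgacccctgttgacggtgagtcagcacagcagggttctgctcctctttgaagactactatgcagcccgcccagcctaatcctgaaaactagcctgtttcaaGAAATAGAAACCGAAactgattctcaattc
Gbp3, chr3:142559794-142560043, plus strand: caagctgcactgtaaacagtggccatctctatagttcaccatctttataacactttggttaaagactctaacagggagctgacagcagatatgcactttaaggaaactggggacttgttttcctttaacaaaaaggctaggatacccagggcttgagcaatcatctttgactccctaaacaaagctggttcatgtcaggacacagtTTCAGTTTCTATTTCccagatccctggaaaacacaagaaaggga
Of the 25 tested members with a promoter in the table, 60% (15) held GAAANNGAA on either strand, and of the 15 of these that were higher with AZD 46.7% (7) did, beside 8.18% of all genes (2211 of 27025). Bst2 (tetherin), which holds budding virus at the cell surface, rose by 1.83 ± 0.31 (adjusted p = 0.0014) from 1.22, 1.64 and 1.15 CPM to 6.01, 4.85 and 3.43 CPM. Irgm1, an interferon-induced GTPase, had 15.4, 8.55 and 10.9 CPM in control and 70.6, 67.1 and 51.7 CPM with AZD, without overlap, and rose by 2.45 ± 0.46 (adjusted p = 0.0025). The guanylate-binding protein Gbp3 had 6.22, 4.80 and 7.53 CPM in control and 30.9, 26.8 and 15.7 CPM with AZD and rose by 1.99 ± 0.38 (adjusted p = 0.0029). Ifit2, which binds foreign RNA, rose by 2.18 ± 0.21 (adjusted p = 5.0e-05), the RNA sensor Ddx58 by 1.60 ± 0.22 (adjusted p = 4.6e-04) and the factor Irf1 by 1.57 ± 0.28 (adjusted p = 0.0018). Parp14 did not pass at 0.64 ± 0.27 (adjusted p = 0.086).

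Lymphocyte genes were near the detection limit. Of 22 T cell and NK cell genes listed, 6 passed the count filter. The summed level of the 21 in the table was 15.84 to 19.09 CPM in control and 10.6 to 12.78 CPM with AZD. Most of it in control was Cd4, which is also expressed outside T cells and had 13.7, 16.4 and 16.7 CPM in control and 4.94, 4.11 and 4.79 CPM with AZD (-1.75 ± 0.34, adjusted p = 0.0029). Foxp3 (chrX:7579676-7595243), the factor of regulatory T cells, had 4 counts in the 3 control libraries, 3 in the tumor libraries and 53 in the AZD libraries. That is a ratio of 12.8 of AZD to control at equal depth, with an exact 95% interval of 4.72 to 48.8 that covers counting error only. In IP, Foxp3 had 25 counts in control, 25 in tumor and 23 with AZD. Control and tumor input share library set PD013, so the library set and the treatment cannot be told apart for this gene. Its span overlaps Ccdc22 on the other strand, and reads of the pair may not be separated. Il7r, the interleukin-7 receptor, rose by 2.16 ± 0.41 (adjusted p = 0.0028), beside -0.27 in tumor (AZD against tumor, adjusted p = 0.0034). Klrb1c (NK1.1) had 1 count in control, 54 in tumor and 69 with AZD, and the chemokine Ccl5 had 0 in control, 54 in tumor and 28 with AZD, at least 9.03-fold higher with AZD when 3 counts over the group are taken as the floor. The kinase Lck, expressed in T cells, did not pass (-0.32, adjusted p = 0.62).

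**Figure D3:**
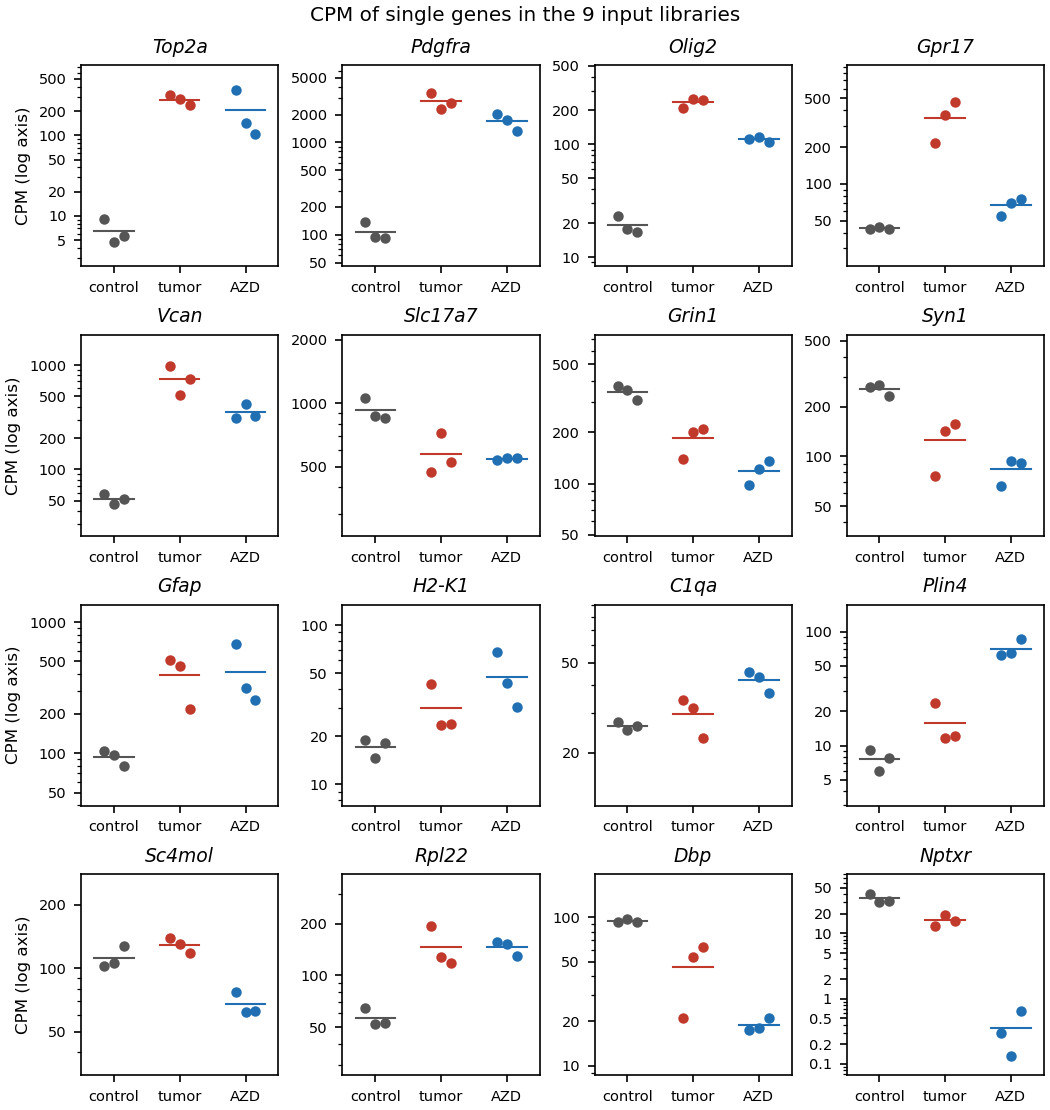
Each panel shows 1 gene in the 9 input libraries, as CPM on a log axis, with control in grey, tumor in red, AZD in blue and a bar at each group mean. Olig2, Vcan and Gpr17 show AZD between control and tumor, Plin4 and C1qa show AZD above both, and Sc4mol, Grin1 and Nptxr show AZD below both.

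Most ribosomal protein genes rose in whole tissue. Of 77 ribosomal protein genes tested, 60 were higher with AZD and none lower, with a median log2 fold of 0.62, and 51 were higher in tumor with a median of 0.56. Many of these genes have processed pseudogenes, and reads could be split between copies. The summed level was 5699 to 6941 CPM in control and 9064 to 10360 CPM with AZD. Rpl22 (chr4:152324436-152334082), the gene whose tagged copy defines the mice, had 64.7, 52.4 and 53.1 CPM in control, 195, 128 and 119 CPM in tumor and 157, 153 and 129.9 CPM with AZD, and rose by 1.37 ± 0.18 (adjusted p = 3.8e-04). Rps18 rose by 1.33 ± 0.18, Rps12 by 1.20 ± 0.17 and Rpl35a by 0.94 ± 0.13. Rps16 had 10.7, 11.5 and 8.68 CPM in control, 16.9, 12.6 and 15.1 CPM in tumor and 36.5, 43.9 and 23.3 CPM with AZD, and was higher with AZD than in either (over control 1.75 ± 0.23, adjusted p = 3.1e-04; over tumor 1.22, adjusted p = 0.005). Rpl19 and Rpl27a did not pass (adjusted p = 0.056 and 0.056). Other genes with a 5′ terminal oligopyrimidine tract, the sequence through which mTOR controls translation of these mRNAs, gave 18 of 29 higher and none lower (median 0.53). The elongation factor Eef1a1 rose by 1.00 ± 0.15 (adjusted p = 7.9e-04) and Eef1d by 0.97 ± 0.16, while the initiation factor Eif3f did not pass at -0.27 ± 0.10 (adjusted p = 0.057) and was lower than in tumor (-0.60, adjusted p = 0.0035).

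Targets of ATF4, tRNA synthetases and cholesterol synthesis genes, which are known outputs of mTOR complex 1, each had a lower median over control with AZD than in tumor. Over all genes tested, 36.8% were called between AZD and control and 48.1% between tumor and control. Of 28 ATF4 target genes tested, among 30 listed, 8 were higher with AZD and 1, Vldlr, lower (median 0.40), beside 23 higher and 1 lower in tumor (median 1.29), and 16 were lower with AZD than in tumor. The AZD count came to 4, 5 and 13 without control library 2, control library 3 or tumor library 1. Of 20 tRNA synthetases, 1, Farsa, was higher and 1, Gars, lower (median 0.11), beside 12 and 1 in tumor. The higher count was 0 without control library 2, control library 3 or AZD library 2, 3 and 2 without control library 1 or tumor library 2, 6 without tumor library 1 and 4, with none lower, with plain library totals. Of these 20, 10 were lower with AZD than in tumor, and 6 or 5 without AZD library 2 or 3. Of 25 cholesterol synthesis genes, 1 was higher and 3 lower (median -0.20), or 5 lower without AZD library 1, beside 16 and 1 in tumor (median 0.62), and 20 were lower with AZD than in tumor. The summed level of the cholesterol list was 1426 to 1446 CPM in control, 1973 to 2317 CPM in tumor and 1087 to 1331 CPM with AZD.

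Sc4mol (Msmo1), a sterol demethylase (chr8:64718123-64733578), had 103, 105 and 128 CPM in control, 139.6, 131 and 118 CPM in tumor and 77.0, 62.2 and 62.8 CPM with AZD. Tumor overlapped control, and every AZD library lay below both. It stood at -0.73 ± 0.13 over control (adjusted p = 0.0017) and -0.94 from tumor (adjusted p = 0.0011). Stard4, a sterol carrier, stood at -0.66 ± 0.14 (adjusted p = 0.0043). The higher member was Pmvk, a kinase of the mevalonate pathway, at 0.46 ± 0.12 (adjusted p = 0.011). Dhcr7 did not pass against control (-0.44 ± 0.16, adjusted p = 0.054) and was lower than in tumor (-1.16, adjusted p = 0.0013). Of 16 fatty acid synthesis genes, 5 were higher and 4 lower with AZD (median 0.08), Acacb, Elovl5, Elovl6, Fads2 and Me1 against Acaca, Acly, Fads1 and Acss2, with the higher count at 1 to 3 without any one of the 6 AZD and control libraries. The lower count was 2 without any one of these other than AZD library 1, and with plain library totals. The carboxylase Acaca stood at -0.37 ± 0.09 (adjusted p = 0.0074), the elongase Elovl5 at 0.59 ± 0.12 (adjusted p = 0.0047) and the acetyl-CoA synthetase Acss2 at -0.57 ± 0.11 (adjusted p = 0.0032).

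Aldh1l2 (chr10:83487447-83534146), a mitochondrial folate enzyme and ATF4 target, had 8.46, 5.38 and 4.60 CPM in control, 152, 109 and 88.9 CPM in tumor and 54.7, 52.9 and 29.4 CPM with AZD. It rose by 2.90 ± 0.31 over control (adjusted p = 9.3e-05) and was lower than in tumor (-1.36, adjusted p = 0.0082). The serine synthesis enzyme Psat1 rose by 0.76 ± 0.16 and the amino acid transporter Slc7a5 by 1.24 ± 0.21, with adjusted p = 0.0049 and 0.0014. The stress factor Atf3 did not pass (1.15 ± 0.51, adjusted p = 0.10), and it was lower than in tumor (-2.09, adjusted p = 0.0095). Among the synthetases, Gars passed at -0.36 ± 0.12 (adjusted p = 0.044), failed without any one of the 6 AZD and control libraries, and was lower than in tumor (-0.69, adjusted p = 0.005). With plain library totals Gars came to adjusted p = 0.14, and leaving out one of these libraries took it to adjusted p between 0.087 and 0.13.

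Of 41 mTOR pathway genes tested, 5 were higher and 6 lower with AZD (median -0.02), beside 36.8% of all genes tested called in either direction. Without tumor library 1 they were 8 higher and 10 lower, without control library 2, AZD library 1 or AZD library 3 the lower count was 2, 2 and 3, and with plain library totals 8 were higher. Mtor (chr4:148448582-148557685) had 196, 192 and 178 CPM in control, 109, 137 and 140 CPM in tumor and 116, 145 and 135 CPM with AZD, and stood at -0.51 ± 0.12 (adjusted p = 0.0096). Irs1, an adaptor of the insulin receptor, rose by 0.83 ± 0.14 and the phosphoinositide 3-kinase subunit Pik3r1 by 0.90 ± 0.16. Lamtor2, a subunit of the lysosomal scaffold for mTOR complex 1, rose by 0.72 ± 0.14 and stood at -0.12 in tumor (AZD against tumor, adjusted p = 0.003). In 4 of the 41 genes, Lamtor2 among them, library set PD013 stood apart from all other libraries, beside 467 of 15511 genes tested. For these the library set and the treatment cannot be told apart. Eif4ebp1 (chr8:27260327-27275656), the translation repressor that mTOR inactivates, had 2.64, 2.17 and 2.43 CPM in control, 20.4, 6.96 and 7.70 CPM in tumor and 3.18, 2.63 and 2.54 CPM with AZD. AZD did not pass against control (0.21 ± 0.41, adjusted p = 0.70) and was lower than tumor (-2.07, adjusted p = 0.0055).

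Some targets of FOXO and of the glucocorticoid receptor were higher. Of 22 FOXO targets tested, among 24 listed, 12 were higher and none lower (median 0.42), beside 9 higher and 2 lower in tumor. Between AZD and tumor, 5 were higher with AZD, 1 was lower and 16 did not pass, with a median difference of 0.01. Pik3ip1 (chr11:3319241-3342971), an inhibitor of phosphoinositide 3-kinase, had 36.8, 35.8 and 32.8 CPM in control, 36.3, 31.7 and 28.1 CPM in tumor and 54.9, 55.1 and 55.6 CPM with AZD. The AZD libraries were nearly equal and above all 6 others. The log2 fold was 0.65 ± 0.11 (adjusted p = 0.0016) and the difference from tumor 0.78 (adjusted p = 0.0014). Sesn1, a stress-induced inhibitor of mTOR complex 1, rose by 0.55 ± 0.12 (adjusted p = 0.0046) and stood at -0.18 in tumor (AZD against tumor, adjusted p = 0.0027). The cell-cycle inhibitor Cdkn1b rose by 1.36 ± 0.16 and the pseudokinase Trib1 by 2.92 ± 0.32, beside 1.09 and 3.54 in tumor. Irs2 did not pass at 0.34 ± 0.13 (adjusted p = 0.067).

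Of 24 glucocorticoid response genes, 13 were higher with AZD and none lower (median 0.94), beside 8 higher in tumor, and 11 were higher with AZD than in tumor. Plin4 (chr17:56100587-56109948), a coat protein of lipid droplets, had 9.20, 5.97 and 7.79 CPM in control, 23.7, 11.6 and 12.3 CPM in tumor and 62.3, 64.2 and 86.2 CPM with AZD. Every AZD library was far above every other input library. It rose by 3.21 ± 0.29 over control (adjusted p = 3.4e-05) and by 2.16 over tumor (adjusted p = 7.3e-04). Zbtb16 (chr9:48651797-48836225), a zinc finger repressor, had 59.5, 47.6 and 50.8 CPM in control, 45.7, 36.0 and 40.7 CPM in tumor and 114, 145 and 122 CPM with AZD (1.27 ± 0.13 over control, adjusted p = 9.0e-05; 1.64 over tumor, adjusted p = 5.2e-05). Tsc22d3 (GILZ), a mediator of glucocorticoid action, rose by 0.99 ± 0.13 (adjusted p = 2.7e-04) and stood at -0.24 in tumor (AZD against tumor, adjusted p = 2.1e-04). The kinase Sgk1 rose by 1.24 ± 0.13 (adjusted p = 1.0e-04), the metabolic factor Klf15 by 0.78 ± 0.15 (adjusted p = 0.0035) and Ddit4 (REDD1), an inhibitor of mTOR complex 1, by 1.82 ± 0.22 (adjusted p = 2.0e-04). Angptl4 did not pass at 1.79 ± 0.72 (adjusted p = 0.074).

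**Figure D4:**
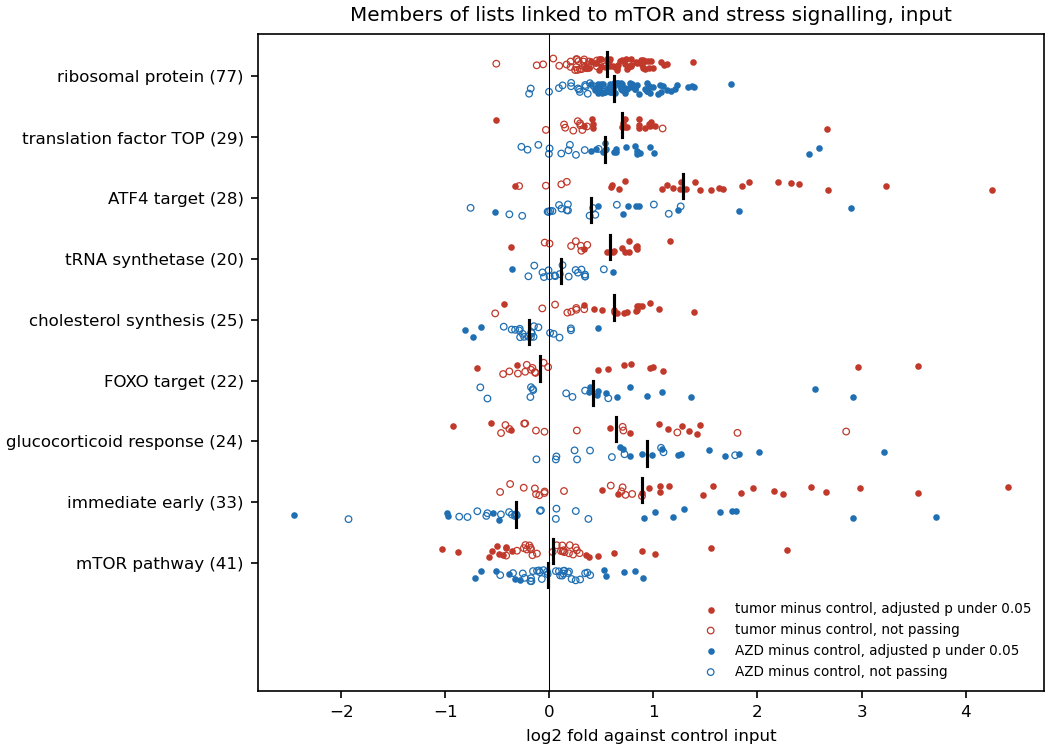
For 9 lists linked to mTOR and stress signalling, each point is 1 gene with its log2 fold over control input, red for tumor and blue for AZD, filled where the adjusted p was under 0.05, with a black bar at the list's median. The AZD medians of cholesterol synthesis (-0.20) and tRNA synthetases (0.11) lie near 0 while those of tumor are 0.62 and 0.58, and the ribosomal protein medians are 0.62 and 0.56.

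Activity-dependent genes were called in both directions, beside 20.7% of all genes tested called higher with AZD and 16.0% lower. Of 33 immediate early genes, 9 were higher and 5, Egr4, Egr3, Jund, Ier5 and Nptx2, lower with AZD (median -0.32). In tumor 18 were higher and none lower (median 0.89), beside 24.5% and 23.6% of all genes tested. Between AZD and tumor 14 were lower with AZD, beside 9.17% of all genes tested. With the 6 AZD and control libraries alone, or without tumor library 1, 11 were lower with AZD than in control. Egr4 (chr6:85511121-85513589), a neuronal zinc finger factor, had 14.2, 13.9 and 10.02 CPM in control, 7.10, 32.0 and 27.3 CPM in tumor and 1.86, 2.09 and 3.02 CPM with AZD. The AZD libraries lay below all 6 others. The log2 fold was -2.46 ± 0.49 over control (adjusted p = 0.0034) and -3.25 from tumor (adjusted p = 0.0019). Bdnf, a neurotrophin induced by activity, did not pass against control (-0.47 ± 0.19, adjusted p = 0.081) and was lower than in tumor (-0.97, adjusted p = 0.0075). Dusp6, a phosphatase induced by ERK signalling, rose by 1.80 ± 0.17 (adjusted p = 3.9e-05), the factor Maff by 3.72 ± 0.62 (adjusted p = 0.0014) and Jun by 1.02 ± 0.19 (adjusted p = 0.0026).

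Genes of energy metabolism were called in both directions. Beside the counts that follow, 20.7% of all genes tested were called higher with AZD and 16.0% lower. Of 21 glycolysis genes, 1 was higher and 2, Pgam1 and Gapdh, lower (median -0.07), and the median of AZD was 0.01 with plain library totals. The higher one was the glucose transporter Slc2a1 (chr4:119108745-119137330), with 93.2, 84.5 and 81.0 CPM in control, 118, 91.3 and 96.2 CPM in tumor and 173, 167 and 168 CPM with AZD, all AZD libraries above all others. Slc2a1 rose by 0.97 ± 0.11 (adjusted p = 1.8e-04) and differed from tumor (0.73, adjusted p = 0.0023). The mutase Pgam1 stood at -0.66 ± 0.11 (adjusted p = 0.0012), and neuronal enolase Eno2 did not pass at -0.40 ± 0.18 (adjusted p = 0.1). Of 74 respiratory chain genes, 9 were higher and 2 lower (median 0.08). The count of 9 came to 3, 3, 3 and 4 without control library 2, control library 3, AZD library 1 or AZD library 3, to 14 with plain library totals or all 18 libraries, and to 5 with no filter on low counts, and the lower count to 4 without tumor library 1 or AZD library 3 or with all 18 libraries. The subunits Atp5d and Cox5a stood at -0.66 ± 0.12 and -0.49 ± 0.10, and Ndufb11 rose by 0.63 ± 0.14. Of 38 lysosome and autophagy genes, 5 were higher and 3, Atp6v0d1 and Tpp1 among them, lower (median 0.00), with 8 higher under plain library totals or without tumor library 1, and 6 lower without tumor library 1 or with all 18 libraries. The protease Ctsl rose by 0.64 ± 0.12 and the protease Tpp1 stood at -0.39 ± 0.09. Of 21 p53 targets tested, 7 were higher and none lower (median 0.44), with 4 and 3 without control library 3 or AZD library 1. The p53-induced Trp53inp1 rose by 1.71 ± 0.15 (adjusted p = 2.8e-05), beside 1.39 in tumor. Of 21 hypoxia genes tested, 3 were higher, the peptide Adm (4.06 ± 0.66), Slc2a1 and Ddit4, and 4 were lower, the carbonic anhydrase Car12 (-1.18 ± 0.19), the kinase Ak4 (-0.74 ± 0.18), the prolyl hydroxylase Egln3 and the oxidase Ero1l. Without tumor library 1, 7 were higher and 7 lower, and without AZD library 1, 2 were lower.

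Among single genes with at least 10 CPM on average, no overlap and no pattern of library set PD013 (described further on), Pnlip (chr19:58670365-58681799) had the widest positive fold. This pancreatic lipase gene had 5.14, 0.995 and 0.319 CPM in control, 237, 146 and 112 CPM in tumor and 163, 147 and 101 CPM with AZD, a log2 fold of 6.03 ± 0.62 (adjusted p = 7.4e-05). The tumor and AZD libraries overlapped, and both stood far above control. Of those 15, 10 belonged to cell division: Ccnb1, Cdk1, Prc1, Top2a, Pbk, Cenpf, Ckap2, Aspm, Nuf2 and Nusap1. The others were Dmrta1, a transcription factor (5.16 ± 0.45), the cell-cycle inhibitor Cdkn2b (5.10 ± 0.85), Hhipl2 (4.97 ± 0.82) and the cartilage collagen Col9a1 (5.32 ± 0.87). Col9a1 had 4.15, 58.3 and 66.6 CPM in the 3 AZD libraries, so libraries 2 and 3 were far above library 1, beside 22.2, 18.5 and 19.5 CPM in tumor. With limma voom it did not pass (adjusted p = 0.083).

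The lowest fold by far was that of Nptxr (chr15:79786351-79804709), the neuronal pentraxin receptor. It had 40.4, 30.6 and 31.9 CPM in control, 13.1, 19.2 and 15.6 CPM in tumor and 0.293, 0.135 and 0.651 CPM with AZD, a log2 fold of -6.53 ± 0.34 (adjusted p = 2.5e-06). In IP its mean was 39.2 ± 5.37 CPM in control and 1.78 ± 0.581 CPM with AZD (SD, n = 3 libraries each), and every library of set PD028 lay below all other libraries of the series. Dbp (chr7:45705100-45710203), a clock-controlled transcription factor, had 92.4, 97.6 and 92.8 CPM in control, 20.9, 54.1 and 63.3 CPM in tumor and 17.3, 18.1 and 21.1 CPM with AZD (-2.33 ± 0.32, adjusted p = 4.1e-04). The AZD libraries were alike and lay below all controls and 2 of the 3 tumor libraries. C1ql3 (chr2:13001887-13010864), a secreted synapse organiser, had 241, 267 and 276 CPM in control, 219.7, 270.2 and 234 CPM in tumor and 99.1, 86.2 and 82.1 CPM with AZD, so that only the AZD libraries were low. It stood at -1.55 ± 0.12 over control (adjusted p = 1.6e-05) and -1.44 from tumor (adjusted p = 5.2e-05). Tmod1, an actin-capping protein, stood at -1.77 ± 0.22 over control and -1.17 from tumor (adjusted p = 0.0053). The chemokine Cxcl12 (-1.66 ± 0.40), the phospholipid transfer protein Pltp (-1.88 ± 0.35), the imprinted transcript Ipw (-1.61 ± 0.27), the potassium channels Kcng3 (-1.61 ± 0.31) and Kcnh4 (-1.70 ± 0.46), and Pcsk1n (-1.63 ± 0.35), Sh3rf2 (-1.88 ± 0.44) and C1qtnf4 (-1.57 ± 0.37) were the rest of the 15 lowest, with Cd4, Syn1 and Grin1. Kcnh4 did not pass without control library 3 or AZD library 1 (adjusted p = 0.053 and 0.054).

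In some genes the library set itself stood apart. All 6 libraries of set PD013, control and tumor input, lay on one side of all 12 other libraries in 222 of the genes called higher with AZD (3.89% of calls) and in 170 of those called lower (2.98%). Without genes in which either set stood apart, 5180 were called, 2934 higher and 2246 lower. Every AZD library, all of set PD028, lay apart from all other libraries in 62 genes called higher (1.09% of calls) and 81 called lower (1.42%), among them Pik3ip1 and Zbtb16, higher, and Nptxr, Pcsk1n, Sc4mol, Vldlr and Acaca, lower. Lamtor2, Tpp1 and Acaca had the PD013 pattern. Of the PD013 genes of at least 10 CPM on average, provisional names left out, the highest folds were those of Cdr1, Hipk4 and Klhl34. Cdr1, which is the host locus of an abundant neuronal RNA on the X chromosome, had 2 counts in control input, 1 in tumor input and 4274 in AZD input, beside 8966 in control IP. That is a ratio of 2070 of AZD to control input, with an exact 95% interval of 572 to 17100. Hipk4, a kinase gene, had 3 counts in control input, 9 in tumor input and 1060 in AZD input, a ratio of 342 (117 to 1660), beside 3351 in control IP. Ccdc73 had 0 counts in control input and 732 in AZD input, at least 236-fold higher. Rell2 (-3.27 ± 0.30), Lypd1 (-2.72 ± 0.19) and Apex1 (-2.11 ± 0.18) were the lowest, and Apex1 had 40.7, 37.6 and 33.1 CPM in control input, 9.43, 7.75 and 8.58 CPM in AZD input and 7.09 ± 0.892 CPM in control IP (SD, n = 3). For such genes the library set and the treatment cannot be told apart.

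The use of strand in counting was not given, so reads of a gene and of a partner on the opposite strand may not be separated. Of 12107 tested genes with a known strand, 31.6% had a span that overlaps a gene of the opposite strand. The share was 54.3% (89 of 164) among higher genes in which set PD013 stood apart and 59.2% (77 of 130) among such lower genes, beside 27.5% and 38.4% in the other called genes. Genes with such a partner were called at 38.7% and those without one at 35.0%. Of the tumor, cell-cycle and matrix genes named here, Cdc20, Prc1, Nusap1, Mcm7, Cdkn2b, Olig2, Sox6, Egfr, Vcan, Timp1, Lama5 and Aebp1 had one. Of the neuronal genes, Cck, Tshz2, Gria4, Grik4, Grin1, Syn1, Shank3, Dlgap3, Bsn, Gabra5, Gabbr2, Kcnmb4, Gad1, Nos1, C1ql3, Srr, Pcsk1n, Tmod1, Lypd1 and Adcyap1 had one. Of the glial, vascular and immune genes, Slc4a4, Ntsr2, Aldh1l1, Amigo2, Cp, Ugt8a, Cx3cr1, Siglech, P2ry12, Cd9, Tapbp, Gbp3, Foxp3, Flt1, Slc22a6 and Pltp had one. Of the metabolic, signalling and other genes, Rpl22, Rpl35a, Rpl19, Vldlr, Elovl5, Elovl6, Me1, Acaca, Acss2, Mtor, Irs2, Plin4, Sgk1, Dusp6, Slc2a1, Atp5d, Ndufb11, Dbp, Arntl, Gas5, Hspe1, Nme7, Stub1 and Ccdc73 had one. The part of strand in their differences was not tested.

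The change in whole tissue was then set against the change in the ribosome IP fraction of the same groups. The contrast was AZD minus control in input minus AZD minus control in IP, over all 18 libraries. Of 16016 genes tested, 4953 (30.9%) differed, 3086 (19.3%) more positive in input and 1867 (11.7%) more negative. With the replicate number as a block the count was 7599, 4220 more positive and 3379 more negative. For this contrast, leaving out a replicate removed both the input and the IP library of that number. Without control replicate 2, control replicate 3 or AZD replicate 2 the count was 3163, 3222 and 3273. The more negative calls, of which plain library totals left 1044, came to 999, 1073, 1213 and 1025 without control replicate 2, control replicate 3, AZD replicate 1 or AZD replicate 2. In IP alone 33.3% of 15734 genes were called between AZD and control, 16.0% higher and 17.4% lower. Input of control and of AZD lie in different library sets, as do IP of control (PD015) and of AZD (PD028).

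Among glioma lineage genes 23 of 24 were more positive in input than in IP, and among mitosis genes 26 of 40. With the replicate block these counts were 24 and 39. Without control replicate 1, 2 or 3 they were 18, 17 and 19 for the glioma lineage and 20, 18 and 20 for mitosis. The glioma lineage median was 1.78 in input and 0.07 in IP, and the mitosis median 4.26 and 1.97. Cd9 had a log2 fold of 3.72 in input and 0.29 in IP, a difference of 3.40 ± 0.48 (adjusted p = 6.5e-05). Tubb6, a tubulin, had 4.29 and 0.08 (difference 4.19 ± 1.09, adjusted p = 0.0084), Nusap1 4.69 and 1.06 (difference 3.61 ± 0.55, adjusted p = 1.5e-04) and the kinesin Kif20a 4.46 and 1.03 (difference 3.41 ± 0.44, adjusted p = 2.9e-05). Glial and vascular markers were more positive in input in 23 of 24 astrocyte, 20 of 24 oligodendrocyte, 25 of 26 microglia and 24 of 25 endothelial and pericyte genes, and without control replicate 2 or 3 the oligodendrocyte count was 13. Their medians in IP were -2.03, -2.91, -2.42 and -2.20, beside -0.15, -0.74, -0.16 and -0.20 in input. Control IP was barely depleted of glial RNA, and AZD IP strongly. The mean summed astrocyte level was 11730 CPM in control input and 11650 CPM in control IP, but 9375 and 3149 CPM with AZD. For microglia it was 685 and 616 CPM in control, and 614 and 127 CPM with AZD. In tumor, whose IP lies in set PD015 like that of control, the astrocyte level was 8453 CPM in input and 7888 CPM in IP. The glioma lineage level was 10200 and 7994 CPM in tumor, and 5381 and 1200 CPM with AZD. The treatment, the library set and the depletion reached by each IP cannot be told apart in the input minus IP contrast. Excitatory neuron markers went the other way: they had a median of -0.62 in input and 0.25 in IP, with 12 of 26 more negative in input and 1 more positive, and 21 more negative with the replicate block. Inhibitory neuron markers did not: their median was -0.54 in input and -2.25 in IP. Of 25, 12 were more positive in input and none more negative, or 19 and 3 with the replicate block.

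Grin1 had a log2 fold of -1.54 in input and 0.13 in IP, a difference of -1.69 ± 0.24 (adjusted p = 7.3e-05). C1ql3 had -1.55 and 0.56 (difference -2.13 ± 0.22, adjusted p = 3.2e-06), and Srr, the serine racemase that makes the NMDA receptor ligand D-serine, had -1.42 and 0.32 (difference -1.76 ± 0.14, adjusted p = 2.4e-07). Nptxr was lower in both fractions, at -6.53 and -4.41 (difference -2.13 ± 0.43, adjusted p = 0.0015). Of 42 synaptic vesicle genes 18 were more negative in input and 1 more positive, and of 49 ion channel genes 20 and 1. With the replicate block these negative counts were 31 and 40. Without control replicate 2 or AZD replicate 1 the vesicle count was 11, and without control replicate 2, control replicate 3, AZD replicate 1 or AZD replicate 2 the channel count was 12, 8, 13 and 9. Ribosomal protein genes had similar medians, 0.62 in input and 0.55 in IP, and 4 of 77 differed, 1 more positive and 3 more negative in input. The 3 came to 0 with plain library totals, 7 with the replicate block and 1 without control replicate 1. Respiratory chain genes had a median of 0.08 in input and 0.40 in IP, and 26 of 74 were more negative in input, but 9 with plain library totals and 16 without control replicate 2 or AZD replicate 2.

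**Figure D5:**
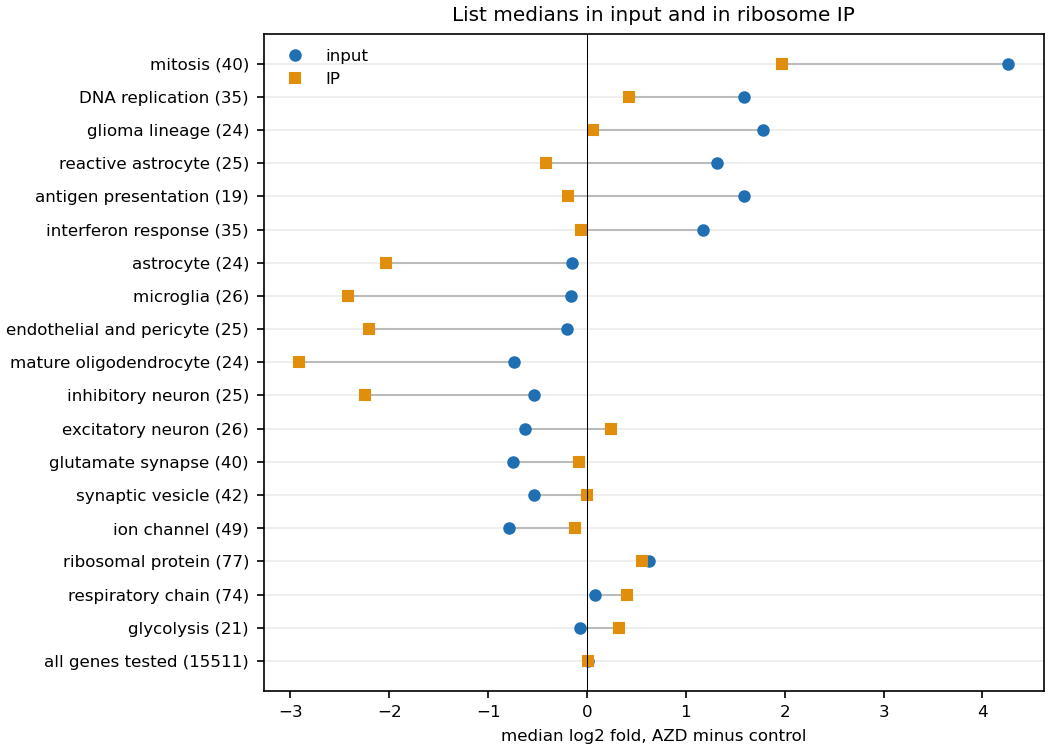
For 18 lists and all genes tested, the blue circle is the median log2 fold of AZD over control in input and the orange square the same in IP, joined by a grey line, with the number of genes in brackets. The circles of mitosis (4.26) and glioma lineage (1.78) lie right of their squares, glial and vascular squares lie near -2 or below while their circles lie between -0.74 and -0.15, and the ribosomal protein symbols nearly coincide.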

How the data were processed

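RNA was sequenced from 18 brain libraries: input and IP of control, tumor and AZD mice, 3 of each. Input is the whole lysate and IP the fraction bound to HA-tagged ribosomes. The raw counts per gene were deposited by the authors in one table of 23420 symbols, without normalization. STAR, DESeq2 and mm10 are listed in the submitters' processing notes. Versions, the counter and its use of strand were not given in the sources used here. By the labels' protocols, libraries came from a directional kit after column purification of RNA.

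Groups were taken from the sample titles. The 9 input libraries were fitted together in edgeR 4.0.16 (R 4.3.3) after filterByExpr (15511 genes) and TMM scaling, with group as the only term, the quasi-likelihood test and Benjamini-Hochberg adjustment over all genes tested. A gene was called at an adjusted p under 0.05. The contrast of input with IP used all 18 libraries (16016 genes). Standard errors are the log2 fold over the square root of F. CPM values are TMM-scaled. A difference named as from tumor is AZD minus tumor in the same fit.

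Alternatives were DESeq2 1.42.0, limma voom (limma 3.58.1), other scalings and filters, the 6 libraries alone, all 18 libraries, the replicate number as a block, glmTreat and leaving out each library. For the input minus IP contrast, the input and IP libraries of a control or AZD number were left out together. The members and gene lists were chosen with earlier results of these data known. List genes that were named are, per list, the 5 called members of lowest adjusted p, or fewer, and at most 2 not called. Single genes are the 15 highest and 15 lowest folds among called genes of at least 10 CPM without overlap or the PD013 pattern, up to 5 such genes with the PD013 pattern in each direction, and the 4 highest and 4 lowest called in the input minus IP contrast at the same level without the PD013 pattern, provisional names (Gm, Rik, -ps, -rs) left out, beside 18 markers fixed by name. Irgm1, Gbp3 and others marked in the text were named outside this rule, after their values were seen, and some members that the rule names are not reported here.

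Same-numbered input and IP libraries deviated together from their group means (r from 0.181 to 0.47 over genes, each library closest to its own number), so the numbers pair input with IP, and the block value stands beside that contrast. The fit was tested on simulated data with 200 changed genes, groups otherwise equal and no difference between library sets. Its rates describe that setting and not the real comparison, in which 5703 genes were called across 2 library sets. For AZD against control in input it recovered 64% of changes of 1 and 89% of changes of 2 on the log2 scale, with 13 false calls among 15511 genes. For the input minus IP contrast it recovered 49% and 81%, with 3 false calls. Replicate libraries of a group correlated at 0.970 to 0.991 on log CPM, and every pair differed beyond sampling noise. Intervals of low counts cover counting error only. Coordinates, strand and promoters come from RefSeq tables of GRCm38.p6 (mm10), in which 23260 symbols (99.32%) and the promoters of 820 of 1100 tested list genes were found. Python 3.11.15 and matplotlib 3.10.9 drew the plots.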

Additional observations from a re-analysis of the deposited data

Results flagged for a closer look

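The change between AZD and control was not the same in input as in IP, and a contrast of the 2 changes called 4953 genes in edgeR's quasi-likelihood test at an adjusted p under 0.05. The mean summed astrocyte level was 9375 CPM in input and 3149 CPM in IP with AZD, but 11730 and 11650 CPM in control. The treatment, the library set and the depletion reached by each IP cannot be told apart in these differences. Among genes of at least 10 CPM on average in the AZD and control input, without provisional names and without the pattern of library set PD013, the widest differences toward input were those of Tubb6 (4.19), Nusap1 (3.61), Kif20a (3.41) and Cd9 (3.40), as log2 change in input minus log2 change in IP. The widest toward IP among the same genes were those of Nptxr (-2.13), C1ql3 (-2.13), Srr (-1.76) and Grin1 (-1.69). These 8 genes kept their direction and their call under both other scalings, with the replicate block and without each replicate number of control or AZD.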

How the results depend on the processing

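For AZD against control, DESeq2 called 6103 genes and limma voom 5395, against 5703, and 5609 and 5344 of these were shared with it. Testing against a fold of 1.5 left 1510 (1252 higher, 258 lower), 2111 for tumor against control and 445 for AZD against tumor. Without single replicates the AZD against control calls ranged from 3737 to 7289, the higher from 2347 to 3898 and the lower from 1390 to 3391. The tumor against control calls ranged from 5679 to 7528 and the AZD against tumor calls from 1359 to 2598. The input minus IP calls ranged from 3163 to 4442, the more positive from 2149 to 2880 and the more negative from 999 to 1571. Same-numbered control and AZD input libraries share only a number (r from 0.0103 to 0.0485 over genes), and a replicate block across them gave 6068 calls. Input and IP are paired by number, and that replicate block gave 7599 input minus IP calls, 3379 of them more negative. Plain library totals moved the median of all genes from 0.01 to 0.10 on the log2 scale and the higher share of calls from 56.4% to 66.2%, left 1044 more negative input minus IP calls and turned the glycolysis median from -0.07 to 0.014. The AZD minus tumor difference of Angptl4 was -0.02 and ranged from -0.47 to 1.75, the latter without tumor replicate 1, and that of Col3a1 was 0.05 and ranged from -1.62, without AZD replicate 1, to 0.51. The cause of these shifts was not tested. Of 277 named genes none changed the sign of a called AZD against control difference under any alternative. With 3 libraries per group, changes of 1 on the log2 scale were recovered in 64% of simulated cases, so a gene that did not pass may still differ.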

Other observations

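Markers of vessels, fibroblasts and other non-neural cells were called in both directions, beside 20.7% of all genes tested called higher with AZD and 16.0% lower. Of 25 endothelial and pericyte genes, 3 were higher with AZD and 3 lower, with a summed level of 792 to 843 CPM in control and 726 to 873 CPM with AZD. The higher ones were transporters of the blood-brain barrier, Slc2a1, the lipid transporter Mfsd2a (0.94 ± 0.18) and the efflux pump Abcg2 (1.05 ± 0.23), and the lower ones were the matrix protein Vtn (-0.90 ± 0.19) and the receptors Flt1 and Tek. The lower count was 1 without any one control library or AZD library 2, 7 without AZD library 1, 6 without tumor library 1 and 5 with DESeq2, and Tek did not pass without any one control library or AZD library 2 (adjusted p between 0.053 and 0.076). The claudin Cldn5 did not pass at 0.15 ± 0.22 (adjusted p = 0.61 in edgeR's test). Of 18 fibroblast and meninges genes, 4 were higher, the collagens Col1a1 (1.33 ± 0.41) and Col3a1 (2.53 ± 0.74), the proteoglycan Lum (1.88 ± 0.33) and Aebp1 (1.24 ± 0.24), and 1 was lower, the transporter Slc22a6 (-1.18 ± 0.38). The higher count was 2 without control library 1, control library 2 or AZD library 1 and with limma voom, and reached 6 when another single library was left out. The lower count was 0 without any one control library or AZD library 1, 2 without tumor library 1 or 3, and 3 without AZD library 3. Col1a1 and Col3a1 did not pass without any one control library or AZD library 1, nor with limma voom, and Slc22a6 did not pass without any one control library, AZD library 1 or AZD library 3, nor with all 18 libraries. None of the 4 neutrophil or 3 erythrocyte genes that passed the count filter, of 14 and 8 listed, was called by edgeR between AZD and control. Tumor library 1 had the highest summed neutrophil and erythrocyte levels (44.7 and 679 CPM, beside at most 14.6 and 159.5 CPM in the other input libraries).

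The same shares of all genes, 20.7% higher and 16.0% lower, stand beside the list counts that follow. Among 15 long noncoding RNAs tested, 5 were higher and 3 lower, and the higher count was 3 without control library 2, control library 3 or AZD library 2, and the lower count 5 without tumor library 1. Neat1, the scaffold of paraspeckles, had 33.2, 52.4 and 41.6 CPM in control, 32.9, 35.6 and 50.5 CPM in tumor and 147, 103 and 59.6 CPM with AZD, so that only AZD was high (1.28 ± 0.29, adjusted p = 0.0072, and 1.38 from tumor, adjusted p = 0.011). The snoRNA hosts Gas5 and Snhg1, whose RNAs carry terminal oligopyrimidine tracts, rose by 0.78 ± 0.14 and 0.96 ± 0.24, and the imprinted antisense RNA Kcnq1ot1 stood at -1.51 ± 0.28. Among 16 heat shock genes, 4 were higher and 2 lower: the cochaperone Bag3 (1.15 ± 0.27) and the mitochondrial Hspe1 (0.64 ± 0.14) rose, and the chaperone Hsph1 stood at -0.66 ± 0.12. The higher count was 2 without control library 2, control library 3 or AZD library 1, and the lower count 1 without control library 1, control library 2, AZD library 1 or AZD library 3. Among 20 clock genes, 4 were lower and 1 higher, with Dbp far below the others and Arntl at -0.59 ± 0.20 (adjusted p = 0.043). The lower count was 2 without control library 1 or with plain library totals and 1 without control library 2, control library 3, AZD library 1 or AZD library 2, and the higher count ranged from 0 to 2. Arntl did not pass without any one control library, tumor library 2, AZD library 1 or AZD library 2 (adjusted p between 0.056 and 0.13), nor with plain library totals. Among 21 neuronal injury genes, the factors Sox11 (1.01 ± 0.20) and Klf6 (0.68 ± 0.17) rose while neurofilament Nefh (-1.02 ± 0.18) and the peptide Adcyap1 (-0.84 ± 0.19) fell.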
